A study of Mus musculus with 4 samples.

Results

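Disease-associated microglia (DAM) genes are a set of transcripts that microglia raise in models of neurodegeneration, demyelination and ageing. Of the 10 DAM genes listed by symbol (Apoe, Trem2, Tyrobp, Lpl, Cst7, Spp1, Cd9, Clec7a, Axl and Lgals3), 9 matched 1 row each among the 31053 genes of the expression tables. Clec7a, the beta-glucan receptor dectin-1, matched no row and was not analysed here. Their levels were measured in 14415 cells of 4 single-cell libraries of brain vascular-associated cells (BVACs), which were released from mouse brain by magnetic beads carrying an antibody to CD31 and by mechanical and collagenase digestion. All mice were wild-type male C57BL/6 of 12 to 14 weeks. In chronic social defeat (CSD), each mouse lived for 14 days beside an aggressive CD-1 male, behind a perforated divider that was lifted for a short fight every day. Home cage (HC) controls lived for 14 days across a divider that stayed in place, with no fights. By the published methods their partner was also a CD-1 mouse, while the labels do not name its strain. Each condition had 2 libraries, CSD 1, CSD 2, HC 1 and HC 2, and each library pooled 4 mice, so the spread between libraries is a spread between pools.

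Microglia leave their resting, homeostatic state in steps. In the early step, Apoe, Tyrobp, B2m and lysosomal genes rise while homeostatic genes such as P2ry12, Tmem119 and Cx3cr1 fall. In the later step, which requires the lipid-sensing receptor Trem2, lipid handling and phagocytic genes such as Lpl, Cst7, Cd9, Axl and Clec7a rise. Several of these genes are also made outside microglia: Apoe is the main apolipoprotein of astrocytes, Spp1 is made by perivascular fibroblasts, and Axl is found in vascular mural cells.

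The libraries held 27297599 to 30361474 UMIs (unique molecular identifiers, 1 per captured transcript) and 2553 to 4934 cells with at least 500 UMIs, at least 250 genes and at most 25% mitochondrial UMIs. Median depth ran from 1408 UMIs per cell in HC 2 to 2357 in HC 1, and 20 barcodes occurred in more than one library. A cell was assigned to a class when its cluster and its own marker UMIs named the same class, so every class name below means cells like that type. The DAM genes were left out of the clustering and are in no marker list. Microglia numbered 1664, 658, 939 and 1289 in CSD 1, CSD 2, HC 1 and HC 2, 4550 in all, and their 9 markers summed to 15610 to 17993 CPM, counts scaled so that all genes of a class in a library sum to 1000000. In microglia the 8 markers of border macrophages, the macrophages of the meninges, perivascular space and choroid plexus, summed to 94.6 to 138 CPM, with Lyve1 and F13a1 at 0. Border macrophages numbered 40, 5, 53 and 11, and they were described but not tested. Hemoglobin genes, which belong to red blood cells, summed to 746, 49.1, 4786 and 3.32 CPM in the microglia of the 4 libraries, and their part in the results was not tested.

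Trem2 and Tyrobp encode a receptor and its signalling partner: Trem2 binds lipids and apolipoproteins at the cell surface, and Tyrobp (DAP12) is the adaptor that carries its signal inward. Trem2 (ENSMUSG00000023992, GRCm38 chr17:48346401-48354147, plus strand) was measured at 2048, 2328, 2066 and 2403 CPM in the microglia of CSD 1, CSD 2, HC 1 and HC 2. The 2 conditions interleaved, and microglia held 95.9% of all Trem2 UMIs found in cells. In border macrophages Trem2 was at 441, 384, 567 and 646 CPM, so the level in microglia was 3.65 to 6.06 times that of border macrophages within each library, and the libraries of these 2 classes did not overlap. In pericytes, next in order among the 10 classes plotted, the mean was 29.8 CPM, and neighbours in the order overlapped from there down. Endothelial cells carried 12.1 to 31.8 CPM of Trem2. That was below the 22.4 to 46.6 CPM that their microglial marker UMIs would bring along as free RNA, estimated from barcodes of at most 100 UMIs. Scaled by choroid plexus markers, free RNA would bring 6.15 to 17.3 CPM, or 49.4 to 54.4% of the observed level.

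Tyrobp (ENSMUSG00000030579, chr7:30413760-30417585, plus strand) ran at 1975, 3465, 2151 and 3322 CPM in microglia. The replicate 2 library of each condition was the higher one, and the difference between libraries of one condition exceeded the difference between conditions. In border macrophages Tyrobp stood at 2587, 3459, 2624 and 3178 CPM, 0.957 to 1.31 times the level in microglia. Both macrophage classes therefore carried the adaptor at overlapping levels while the receptor differed, and the next of the 10 classes plotted, astrocytes, averaged 50.5 CPM.

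The 250 bases before the transcription start are shown for Trem2, the receptor of the microglia, and for Spp1, which pericytes and fibroblasts carried. Capitals mark GAGGAA or its reverse complement TTCCTC, the core bound by ETS factors such as PU.1, the factor that macrophages need to form. The sequences are RefSeq promoters of GRCm38.p6, read 5′ to 3′ on the gene's strand, at chr17:48346151-48346400 (plus) for Trem2 and chr5:104434861-104435110 (plus) for Spp1.
Trem2: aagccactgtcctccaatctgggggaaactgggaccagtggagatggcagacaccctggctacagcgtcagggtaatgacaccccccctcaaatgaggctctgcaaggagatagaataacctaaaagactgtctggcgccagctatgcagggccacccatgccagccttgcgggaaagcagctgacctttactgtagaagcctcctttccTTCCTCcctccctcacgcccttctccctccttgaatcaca
Spp1: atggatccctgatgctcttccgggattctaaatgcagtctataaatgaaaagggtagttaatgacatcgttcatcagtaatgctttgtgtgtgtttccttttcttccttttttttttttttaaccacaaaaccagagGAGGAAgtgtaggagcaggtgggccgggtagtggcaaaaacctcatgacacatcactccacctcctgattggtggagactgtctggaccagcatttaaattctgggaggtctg
The motif began 40 bases before the Trem2 start and 113 bases before the Spp1 start. It was present on either strand before at least 1 start of 4 of the 7 matched members with an entry (Apoe, Trem2, Spp1 and Axl). It was in 23.3% of all 32851 promoters of that length. The first share is over genes, of which Apoe and Spp1 had several starts, and the second over single promoters, so they are not like measures. Cst7, Cd9 and Lgals3 had no match in this window. The letters were thus shared by a microglial member and by a member that microglia nearly lacked. Tyrobp and Lpl had no entry in the promoter table.

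Apoe, the apolipoprotein that loads lipid particles in the brain and a ligand of Trem2, was highest per UMI in border macrophages and astrocytes among the 10 classes plotted. Choroid plexus cells, at 3428 to 4257 CPM but deep and numerous, held 50.7% of all Apoe UMIs in cells, against 7.26% in border macrophages, 5.10% in microglia and 4.51% in astrocytes. An unnamed cluster of 80 cells led by Npy, Fabp7 and Apod averaged 24887 CPM. Apoe (ENSMUSG00000002985, chr7:19696109-19699188, minus strand) was at 52815, 57919, 55220 and 49173 CPM in border macrophages, and all 109 of these cells held an Apoe UMI even after each was thinned to 500 UMIs. In astrocytes it was at 10637, 22020, 10185 and 15546 CPM. In microglia it was at 845, 926, 629 and 1086 CPM. The level in border macrophages was 45.3 to 87.8 times that in microglia within each library. Microglia also lay below endothelial cells (1945 to 2715 CPM), at 0.308 to 0.434 times their level.

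Free RNA carried 4296 to 6474 CPM of Apoe, above the level in microglia of every library. Scaled by the endothelial markers found in microglia, free RNA would give 557, 367, 659 and 1083 CPM of Apoe, or 39.6 to 105% of the observed level. Scaled by choroid plexus markers it would give 110 to 248 CPM, or 11.9 to 22.8%. The share of Apoe in microglia that was free RNA thus depended on the markers used to estimate it. In endothelial cells free RNA would give 34.0 to 52.4% of the Apoe level scaled by microglial markers, and 9.33 to 18.7% scaled by choroid plexus markers. After thinning, 27.3% of microglia held an Apoe UMI (95% exact interval 26.0 to 28.6%, counting error only), against 63.4% of endothelial cells.

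Lpl, the lipase that frees fatty acids from triglyceride particles, was rare in microglia. It was at 10.2, 13.1, 15.7 and 13.3 CPM (142 UMIs in all), and 97 of 4550 microglia held an Lpl UMI. Arterial smooth muscle cells carried 71.5, 38.3, 66.8 and 68.5 CPM, 2.93 to 7.003 times the microglial level in each library. Fibroblasts reached 62.1, 0, 121 and 117 CPM, from at most 8 UMIs in a library. The libraries of the highest classes overlapped, so their order was not resolved.

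Cst7, cystatin F, an inhibitor of lysosomal cysteine proteases, was at 8.05, 6.53, 6.02 and 5.39 CPM in microglia, from 13 to 26 UMIs per library. Among the 10 classes plotted, the only UMI of Cst7 outside microglia was 1 in the pericytes of HC 2. Its main other source was an unnamed cluster of 164 cells led by Ccl5, Nkg7, Gzma and the T cell receptor chain Trbc2, genes of cytotoxic lymphocytes, where it reached 94.9, 57.5, 84.0 and 115 CPM. That cluster held 30.4% of all Cst7 UMIs in cells, and microglia held 65.2%. Genes of NK cells (Ncr1, Klrb1c, Nkg7, Gzma and Klre1), which are also markers used to assign cells to classes, were at 0 in microglia.

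Cd9, a tetraspanin of the cell membrane, and Axl, a receptor kinase that recognises dying cells through its ligand Gas6, are surface proteins, as is Trem2. Cd9 was at 1011, 1195, 1343 and 1267 CPM in microglia, and these libraries overlapped those of ependymal cells (1129 to 1458 CPM) and oligodendrocyte precursor cells (1077 to 1225 CPM). Free RNA scaled by endothelial markers would account for 1.29 to 6.76% of it. Endothelial cells carried 142 to 208 CPM, so microglia were 4.92 to 8.41 times higher. In border macrophages Cd9 gave 2, 5, 2 and 0 UMIs, or 24.5, 274 and 14.9 CPM in the first 3 libraries, while the 0 in HC 2 allowed a level of up to 162 CPM. After thinning, 2 of 109 border macrophages (1.83%) and 1895 of 4550 microglia (41.6%) held a Cd9 UMI. Apoe and Cd9 thus ran in opposite order in the 2 macrophage classes.

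Axl was low in microglia and high in mural cells. Microglia gave 5.26, 3.43, 2.81 and 7.06 CPM (51 UMIs in all), and free RNA scaled by endothelial markers would give 48.9 to 133% of that (14.7 to 25.5% scaled by choroid plexus markers). Pericytes, the mural cells of capillaries, carried 215, 248, 284 and 222 CPM, 31.4 to 101 times the microglial level. Fibroblasts followed at a mean of 118 CPM and arterial smooth muscle cells at 82.2 CPM, with overlapping libraries between neighbours.

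Spp1 and Lgals3 encode secreted proteins, the matrix phosphoprotein osteopontin and the sugar-binding galectin-3. Spp1 (ENSMUSG00000029304, chr5:104435118-104441050, plus strand) was at 1.24, 1.03, 2.01 and 2.91 CPM in microglia, 19 UMIs in 15 cells, and free RNA scaled by endothelial markers would give 93.1 to 138% of it (19.3 to 41.6% scaled by choroid plexus markers). Fibroblasts carried 2465, 4204, 1628 and 2122 CPM and pericytes 330, 517, 199 and 151 CPM. The libraries of fibroblasts, pericytes and border macrophages, the third class, did not overlap in that order. Fibroblasts averaged 944.7 CPM of Spp1 when the gate on marker UMIs of each cell was not applied, against 2605 CPM with it.

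Lgals3 (ENSMUSG00000050335, chr14:47367751-47386160, plus strand) had its highest mean among the 10 classes plotted in ependymal cells, at 219, 229, 207 and 147 CPM. Border macrophages, at 98.1, 329, 59.6 and 0 CPM from 22 UMIs, overlapped them, and choroid plexus cells carried 40.3 to 52.2 CPM. Microglia were at 5.88, 3.09, 17.7 and 7.47 CPM. An unnamed cluster of 115 cells, led by the neutrophil genes S100a9 and S100a8 and the antigen presentation genes H2-Eb1 and Cd74, reached 814, 2117, 428 and 736 CPM. It held 16.9% of all Lgals3 UMIs in cells, against 54.1% in choroid plexus cells and 13.3% in ependymal cells.

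**Figure D1:**
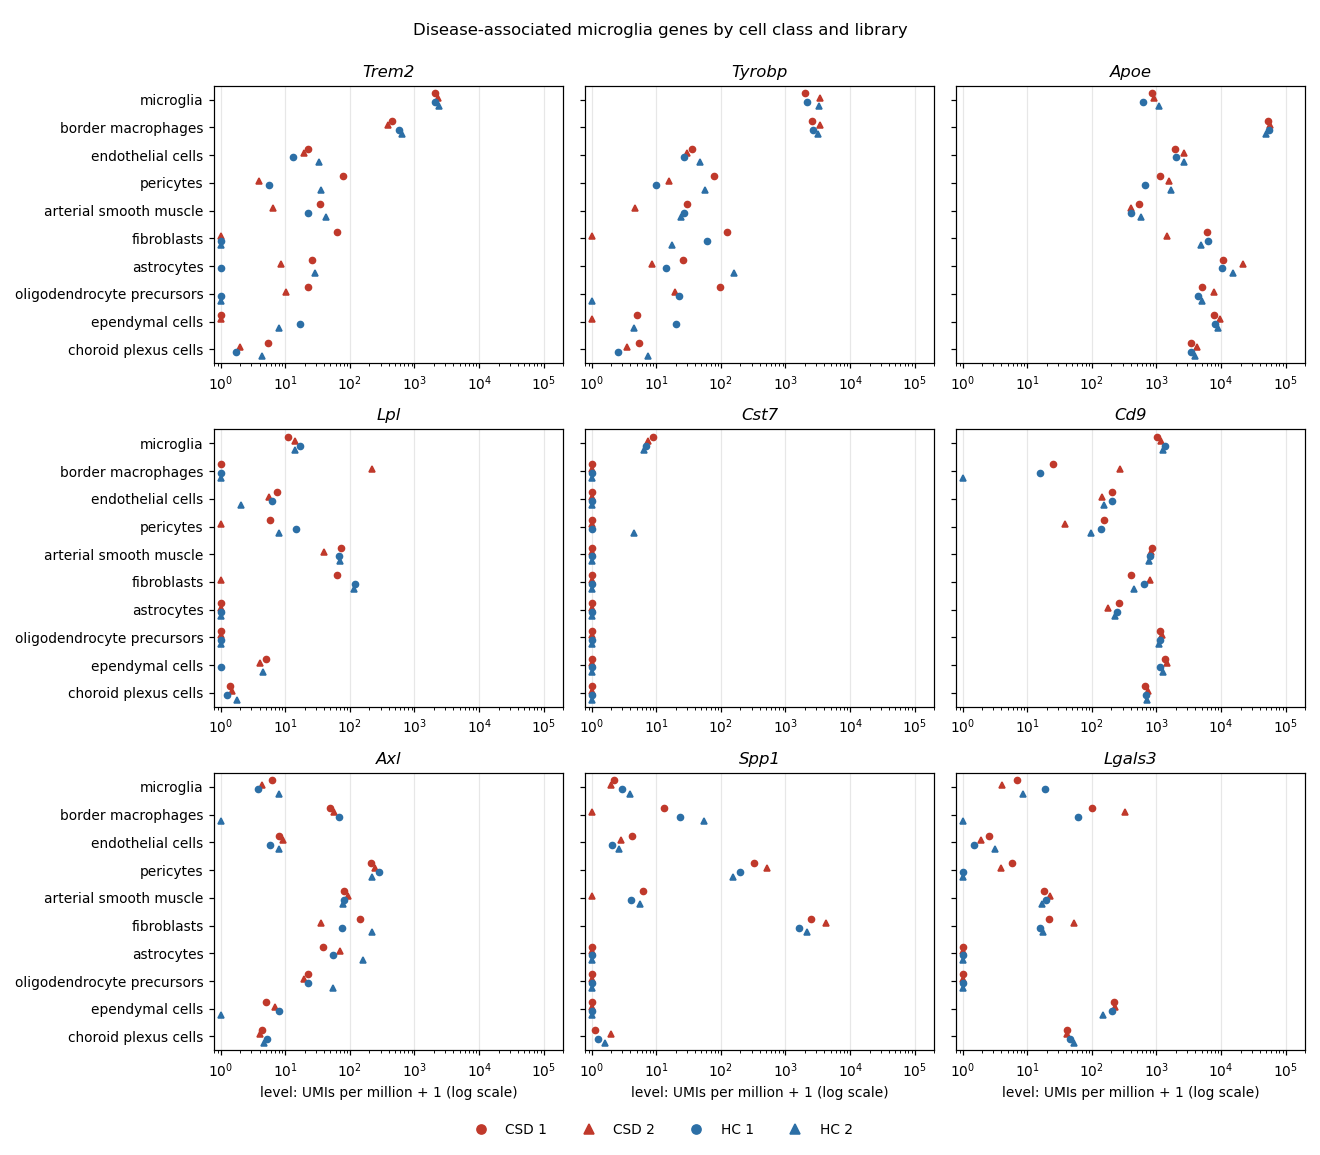
Level of the 9 measured members in 10 cell classes, 1 point per library, as CPM plus 1 on a log axis (red CSD, blue HC, circles replicate 1, triangles replicate 2). Trem2 stands out in microglia, Tyrobp in microglia and border macrophages, Apoe in border macrophages at 49173 CPM and above, and Spp1 in fibroblasts and pericytes.

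Across the 9 classes with at least 10 cells in every library, the genes whose mean log2(CPM + 10) followed each member most closely were named as a description, with all points taken from the same 4 libraries. Trem2 followed the fractalkine receptor Cx3cr1 (Pearson r = 0.997 across the 9 classes), Selplg and Cd300c2. Tyrobp followed Fcer1g (r = 0.991), another adaptor with the same kind of signalling motif, Csf1r and Fcrls. Spp1 followed the transporter Slc6a13 (r = 0.996), a fibroblast marker, Gpr182 and Abca8a. Axl followed Sh3glb2 (r = 0.954), Ptpn9 and the pericyte receptor Pdgfrb. The best match of Cd9 was weaker (Snx24, r = 0.809, then Timp2 and Aprt). Apoe was closest to Gstm5 (r = 0.962), Scd2 and Hacd3, Lpl to Trp53i11 (r = 0.942), Igfbp4 and Foxc2, and Lgals3 to Mipep (r = 0.943), Erich2 and Mia. Cst7 stayed under the 50 CPM required. Cx3cr1, Fcrls, Slc6a13 and Pdgfrb were also markers used to assign cells to classes, so their pattern across classes was in part set beforehand.

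The effect of CSD on the members in microglia was then tested over libraries. Of 8 members tested in microglia by edgeR's quasi-likelihood test, 0 passed an adjusted p of 0.05, and none of the 10011 genes tested did (0% called, with 147 genes, or 1 of the 8 members, at an unadjusted p under 0.05). DESeq2 called 1 gene and no member. That gene was Fkbp5, a co-chaperone of the glucocorticoid receptor, named here after its value was seen (log2 difference 1.69, SE 0.34, adjusted p = 0.00687 by DESeq2). By edgeR it differed by 1.68 (SE 0.24, adjusted p = 1), at 210 and 172 against 56.2 and 61.3 CPM after scaling. Spp1 was too low to be tested. Trem2 differed by 0.01 on the log2 scale (SE 0.31, approximate 95% interval -0.59 to 0.62). Tyrobp differed by 0.05 (SE 0.43, interval -0.80 to 0.90) and Apoe by 0.08 (SE 0.36, interval -0.63 to 0.80). These intervals take a normal spread of the estimate, which makes them too narrow for 2 pools per condition. Differences inside them were not excluded, and a difference outside them need not have been called.

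Cd9 differed by -0.19 (SE 0.29, adjusted p = 1 by edgeR). On the raw CPM scale given above its CSD libraries were both below the HC libraries, but after TMM scaling they overlapped (987 and 1279 against 1287 and 1265 CPM). Lpl was also lower in both CSD libraries on the raw scale and overlapped after scaling, with a log2 difference of -0.27 (SE 0.30). Axl differed by -0.15 (SE 0.58). Of the 8 tested members, Cst7 had both CSD libraries above both HC libraries after scaling and Lgals3 had both below. Over all genes tested, 22.9% had libraries that did not overlap between conditions. Microglia with 3 or more Cst7 UMIs numbered 2, both in CSD 1, and held 10 of the 26 Cst7 UMIs of that library, with 7 in 1 cell. Without those 10 UMIs, CSD 1 would lie below both HC libraries, so the separation of Cst7 depended on these 2 cells. No fit was run without them. The log2 difference was 0.39 for Cst7 (SE 0.38, adjusted p = 1 by edgeR) and -1.43 for Lgals3 (SE 0.51, unadjusted p = 0.0278, adjusted p = 1 by edgeR).

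**Figure D2:**
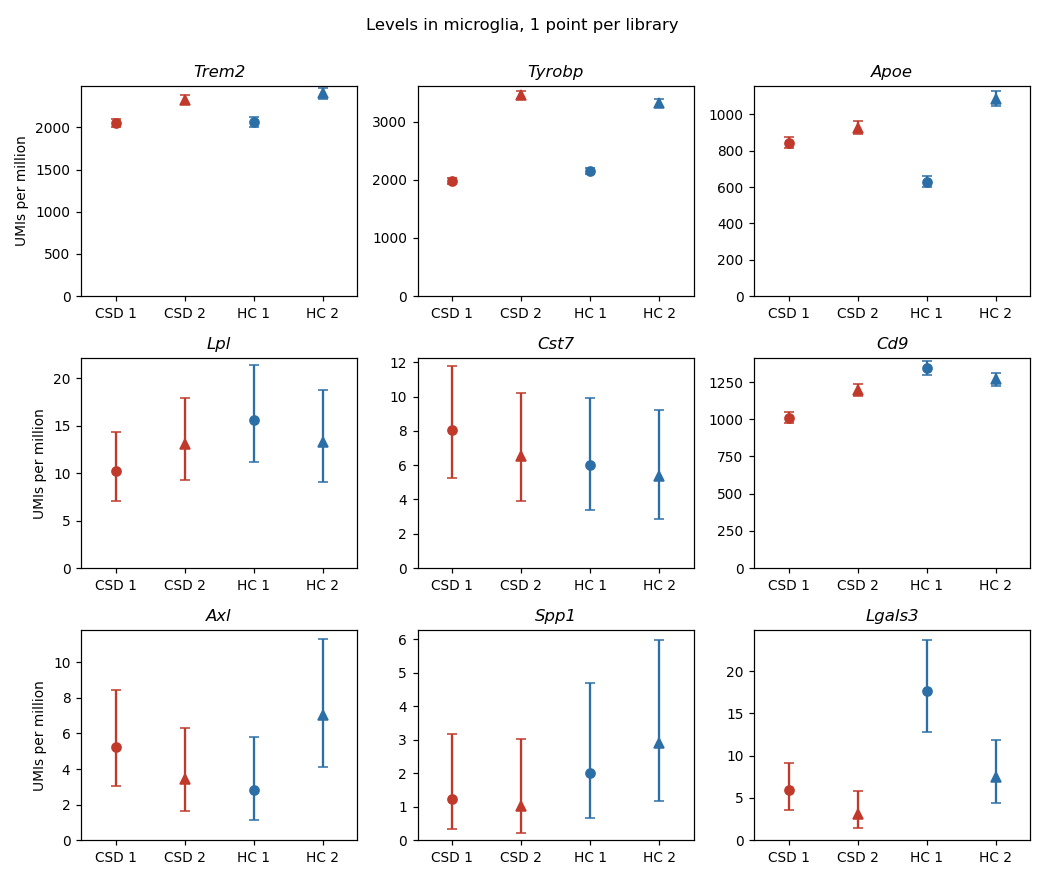
Level of each member in microglia by library, in CPM from 0, with exact 95% Poisson intervals that cover counting error only. Tyrobp is higher in the replicate 2 library of both conditions (3465 and 3322 CPM), and Lgals3 is highest in HC 1 (17.7 CPM).

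The Lgals3 difference rested on a few cells. Of 4550 microglia, 36 held an Lgals3 UMI and 8 held 3 or more, up to 17 in 1 cell of HC 1. These 8 cells carried 14 of the 28 Lgals3 UMIs of the CSD libraries and 45 of the 62 of the HC libraries. They came from CSD 1 (3 cells), CSD 2 (1), HC 1 (3) and HC 2 (1). Scrublet, a doublet caller, marked none of them. After thinning, 16 microglia (0.352%) and 4 of 4950 endothelial cells (0.0810%) held an Lgals3 UMI. Free RNA would give 39.7, 17.3, 22.4 and 79.7% of the Lgals3 of microglia in CSD 1, CSD 2, HC 1 and HC 2 scaled by endothelial markers, and 4.30 to 18.3% scaled by choroid plexus markers.

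The 8 cells, chosen by their Lgals3 after its values were seen, carried other DAM genes at high levels, and the values that follow are a description of these cells with counting intervals and no test. Cst7 was at 396 CPM (12 UMIs, interval 205 to 692) against 5.54 CPM in the other 4542 microglia, and Lpl at 363 CPM (11 UMIs, interval 181 to 650) against 11.9 CPM. Apoe was at 3667 CPM (interval 3016 to 4416) against 863, and Cd9 at 3601 CPM (interval 2956 to 4343) against 1184. The lysosomal proteases Ctsb and Ctsd, genes of the early DAM step, were at 4988 against 1073 CPM and at 14832 against 5668 CPM. The homeostatic receptor P2ry12 was at 297 CPM (9 UMIs, interval 136 to 564) against 1780, Tmem119 at 132 CPM (4 UMIs, interval 36.0 to 338) against 1077, and Cx3cr1 at 991 CPM against 2118. Trem2 (2477 against 2203 CPM) had an interval, 1949 to 3106, that included the level of the other microglia. Spp1 and the genes S100a8, Ccr2 and Mrc1 of neutrophils, monocytes and border macrophages gave 0 UMIs in the 8 cells, which allows up to 99.1 CPM of each. S100a8, Ccr2 and Mrc1 are also markers of the gate, which left out cells with more marker UMIs of another class. Their 0 counts were thus in part set beforehand. Cst7, Lpl and Apoe UMIs were found in 3, 3 and 5 of the 8 cells, so the pattern was not shared evenly. The 2 cells of CSD 1 with 3 or more Cst7 UMIs were among the 8 and held 10 of their 12 Cst7 UMIs. The intervals do not allow for UMIs that share a cell.

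**Figure D3:**
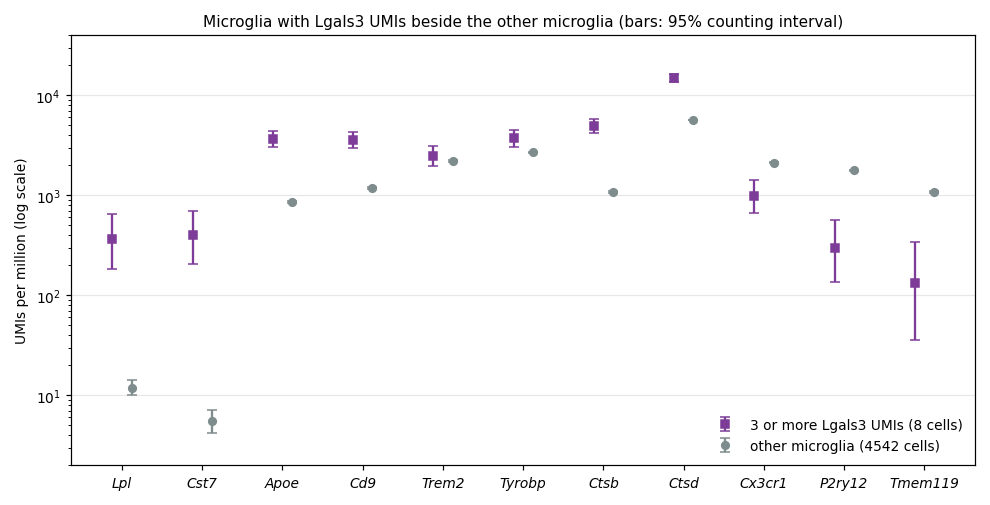
Levels of 11 genes, in CPM on a log axis, summed over the 8 microglia with 3 or more Lgals3 UMIs (squares) and over the other 4542 microglia (circles), with 95% Poisson intervals for counting error only. Lpl, Cst7, Apoe, Cd9, Ctsb and Ctsd lie higher in the 8 cells, Trem2 is level, and Cx3cr1, P2ry12 and Tmem119 lie lower (for example 132 against 1077 CPM for Tmem119).

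Cells carrying several members of the Trem2-dependent step were counted next, over Lpl, Cst7, Spp1, Cd9 and Axl, with each cell thinned to 500 UMIs because median depth in microglia ran from 1854 UMIs in HC 2 to 4805 in CSD 2. At least 2 of the 5 were found in 8 of 1664, 4 of 658, 6 of 939 and 14 of 1289 microglia, or 0.481%, 0.608%, 0.639% and 1.09%. The mean was 0.544% ± 0.0900 (SD, n = 2) in CSD and 0.863% ± 0.316 (SD, n = 2) in HC, with every CSD library below every HC library (exact two-sided permutation p = 0.333, the smallest that 2 against 2 libraries allow). At least 1 of the 5 was found in 39.2%, 39.8%, 44.5% and 46.0%, nearly all of it Cd9: without Cd9 the count fell to 62 of 4550 cells (1.36%). Only 1 microglial cell held 3 of the 5. Without Cd9, 2 or more members were found in 1 of 4550 microglia, so nearly all microglia with 2 or more held Cd9. The count without Cd9 was 0 of 4950 endothelial cells, 4 of 607 pericytes and 7 of 85 fibroblasts. Without thinning, 4.13% of microglia held 2 or more, at 3.25% and 6.38% in CSD 1 and CSD 2 and 4.37% and 3.96% in HC 1 and HC 2. The mean of CSD was then higher by 0.653 percentage points, through CSD 2, the deepest library in microglia, while CSD 1 lay below both HC libraries. In endothelial cells, which should lack this program, 4 of 4950 cells (0.0810%) held 2 or more after thinning, and so did 7 of 607 pericytes (1.15%) and 13 of 85 fibroblasts (15.3%), against 32 of 4550 microglia (0.703%). The endothelial cells had median depths of 855.5 to 1462 UMIs. The smaller share of CSD microglia shrank to a difference of -0.0353 percentage points (exact permutation p = 1) with at least 1000 UMIs per cell and to -0.0264 (exact permutation p = 1) without clusters 11 and 16.

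The microglia fell into 6 clusters, and Trem2, Tyrobp, Apoe, Cd9 and Lpl were found in all 6. Cst7 and Lgals3 gave 0 UMIs in cluster 16, Spp1 in clusters 11 and 25, and Axl in cluster 25. Cluster 1 (1729 cells) was led by Rgs1, Tmem119, Rgs2 and Selplg, cluster 4 (1174 cells) by the cytokine and chemokine genes Il1a, Ccl4, Tnf and Ccl3, and cluster 6 (860 cells) by Fcer1g, C1qb and the members Trem2 and Tyrobp. Cluster 11 (420 cells) was shallow, with a median of 704 UMIs, and was led by hemoglobin genes, at 20158 CPM summed. Nearly all of this came from HC 1: hemoglobin was at 0, 251, 70950 and 0 CPM in its cells of CSD 1, CSD 2, HC 1 and HC 2. Cluster 16 (282 cells) was led by Hbb-bs and neuronal Camk2a before the marker gate. Its gated microglia carried 17.2 CPM of hemoglobin over all libraries, the lowest such level of the 6 clusters. Tyrobp was at 2048 CPM in cluster 1, 2951 in cluster 4, 3089 in cluster 6 and 4853 in cluster 11. In each of the 6 clusters the replicate 2 library of a condition was above the replicate 1 library, as in cluster 4 with 2276 and 3575 CPM in CSD and 2310 and 3553 CPM in HC. Trem2 varied less, between 1787 and 2445 CPM. Apoe was at 696 to 888 CPM in clusters 1, 4, 6 and 25 and at 2287 CPM in cluster 11 and 1661 CPM in cluster 16.

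The low members did not share 1 cluster. Lpl had its highest level in cluster 4 (20.1 CPM, 83 of the 142 Lpl UMIs of microglia). Lgals3 and Cst7 were at 35.9 CPM each in cluster 11 (13 UMIs each), against 14.6 and 8.74 CPM in cluster 4 (60 and 36 UMIs). The Cst7 UMIs of cluster 11 numbered 8, 0, 3 and 2 in CSD 1, CSD 2, HC 1 and HC 2, so most came from CSD 1. In cluster 4, Lgals3 was at 4.50 and 2.53 CPM in CSD 1 and CSD 2 (4 UMIs each) and at 34.3 and 25.9 CPM in HC 1 and HC 2 (38 and 14 UMIs). This separation rested on few cells, since 5 of the 8 cells with 3 or more Lgals3 UMIs lay in cluster 4. Of its UMIs, 35 of the 38 in HC 1 lay in 3 cells, 10 of the 14 in HC 2 in 1 cell, and all 4 in CSD 2 in 1 cell. In cluster 11 Lgals3 was at 125 and 19.8 CPM in CSD 1 and CSD 2 (8 and 3 UMIs) against 19.5 and 0 CPM in HC 1 and HC 2 (2 and 0 UMIs). CSD 2 and HC 1 were thus nearly equal there. The level in CSD 1 also rested on few cells, since 2 of its cells with 3 or more Lgals3 UMIs lay in cluster 11. Cluster 4 made up 21.7%, 39.5%, 32.8% and 19.0% of the microglia of CSD 1, CSD 2, HC 1 and HC 2, so its share did not separate the conditions. Without clusters 11 and 16, a choice made after the data were seen, the log2 difference of Lgals3 between conditions was -2.05 (adjusted p = 1 by edgeR). Without HC replicate 1, which held the cell with 17 UMIs, it was -0.73 (adjusted p = 1 by edgeR), and over the alternatives run the adjusted p lay between 0.308 and 1.

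**Figure D4:**
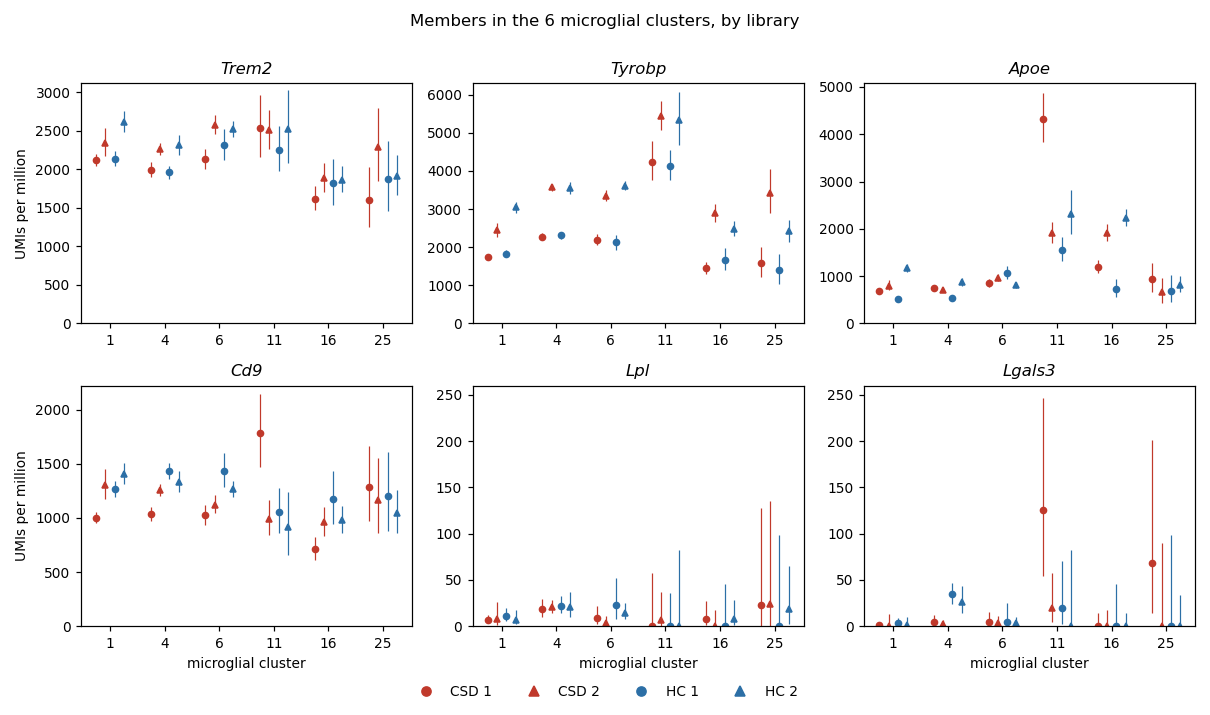
Levels of 6 members in the 6 microglial clusters by library, in CPM from 0, with 95% Poisson intervals for counting error only. Tyrobp is higher in the replicate 2 libraries (triangles) in every cluster, and in cluster 4 Lgals3 is higher in both HC libraries (34.3 and 25.9 CPM) than in both CSD libraries. Most of those HC UMIs lay in 3 cells of HC 1 and 1 cell of HC 2, and the intervals do not allow for UMIs that share a cell.

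Outside microglia, the member with the greatest difference between conditions was Spp1 in pericytes and fibroblasts. In pericytes, Spp1 was at 330 and 517 CPM in CSD 1 and CSD 2 and at 199 and 151 CPM in HC 1 and HC 2, without overlap. The log2 difference was 1.32 (SE 0.31, unadjusted p = 0.00186, rank 3 of 4481 genes by p), which did not pass adjustment over all genes (adjusted p = 0.999 by edgeR). In fibroblasts the libraries were at 2465 and 4204 against 1628 and 2122 CPM, also without overlap, with a log2 difference of 0.95 (SE 0.45, adjusted p = 0.629 by edgeR) from 14 to 31 cells per library. Without CSD replicate 1, both Spp1 differences passed: pericytes at 1.604 (adjusted p = 0.0047 by edgeR) and fibroblasts at 1.26 (adjusted p = 0.0442), with the remaining CSD library assumed to vary like the other condition. Apoe in fibroblasts then also passed, at -1.805 (adjusted p = 0.00885 by edgeR), from its 1482 CPM in CSD 2 against 6069 in CSD 1. Each of the 3 calls was made with CSD 2 as the only library of its condition, and without CSD replicate 2 the fibroblast Apoe difference was 0.09.

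Spp1 in pericytes was carried by few cells. An Spp1 UMI was found in 13, 28, 10 and 18 pericytes of CSD 1, CSD 2, HC 1 and HC 2, which after thinning was 10.48%, 10.0%, 8.05% and 6.12%. The 34 of 607 pericytes with 3 or more Spp1 UMIs held 290 of its 333 UMIs, and 16 of the 34 also held UMIs of fibroblast markers. Fibroblast markers summed to 182, 257, 172 and 222 CPM in the pericytes of the 4 libraries, and their part in the Spp1 difference was not tested.

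In the 8 other classes, 33 member by class pairs were tested and 0 passed (0% called in each class except endothelial cells, with 0.0905% of 9941 genes called, and choroid plexus cells, with 0.149% of 11410). DESeq2 also called 0 of these pairs. After scaling, libraries did not overlap between conditions for 10 of the 33 pairs. Over all genes tested, libraries did not overlap for 21.8% of genes in astrocytes, 29.5% in choroid plexus cells, 29.9% in arterial smooth muscle cells, 30.5% in ependymal cells, 31.2% in pericytes, 35.3% in fibroblasts, 38.9% in endothelial cells and 44.2% in oligodendrocyte precursor cells, so the members' share was near that of other genes. Besides Spp1, these were Cd9 in arterial smooth muscle cells (0.08), ependymal cells (0.20) and oligodendrocyte precursor cells (0.15), Axl in arterial smooth muscle cells (0.11) and endothelial cells (0.42), and Apoe in oligodendrocyte precursor cells (0.48), given as log2 differences with CSD higher. Lgals3 (-0.30) and Axl (-0.31) in choroid plexus cells were lower in CSD. Apoe in oligodendrocyte precursor cells was at 5772 and 8938 against 4104 and 4216 CPM after scaling, while on the raw scale the lower CSD library (5097 CPM) lay below the higher HC library (5116 CPM). In border macrophages, which were not tested, Apoe was at 52815 and 57919 CPM in CSD and 55220 and 49173 CPM in HC, with only 5 cells in CSD 2. The effect of CSD was also compared between microglia and endothelial cells in 1 model for 7 members, and it differed for none of them (adjusted p = 1 by edgeR, with 417 of 11275 genes at an unadjusted p under 0.05 and 0% called).

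**Figure D5:**
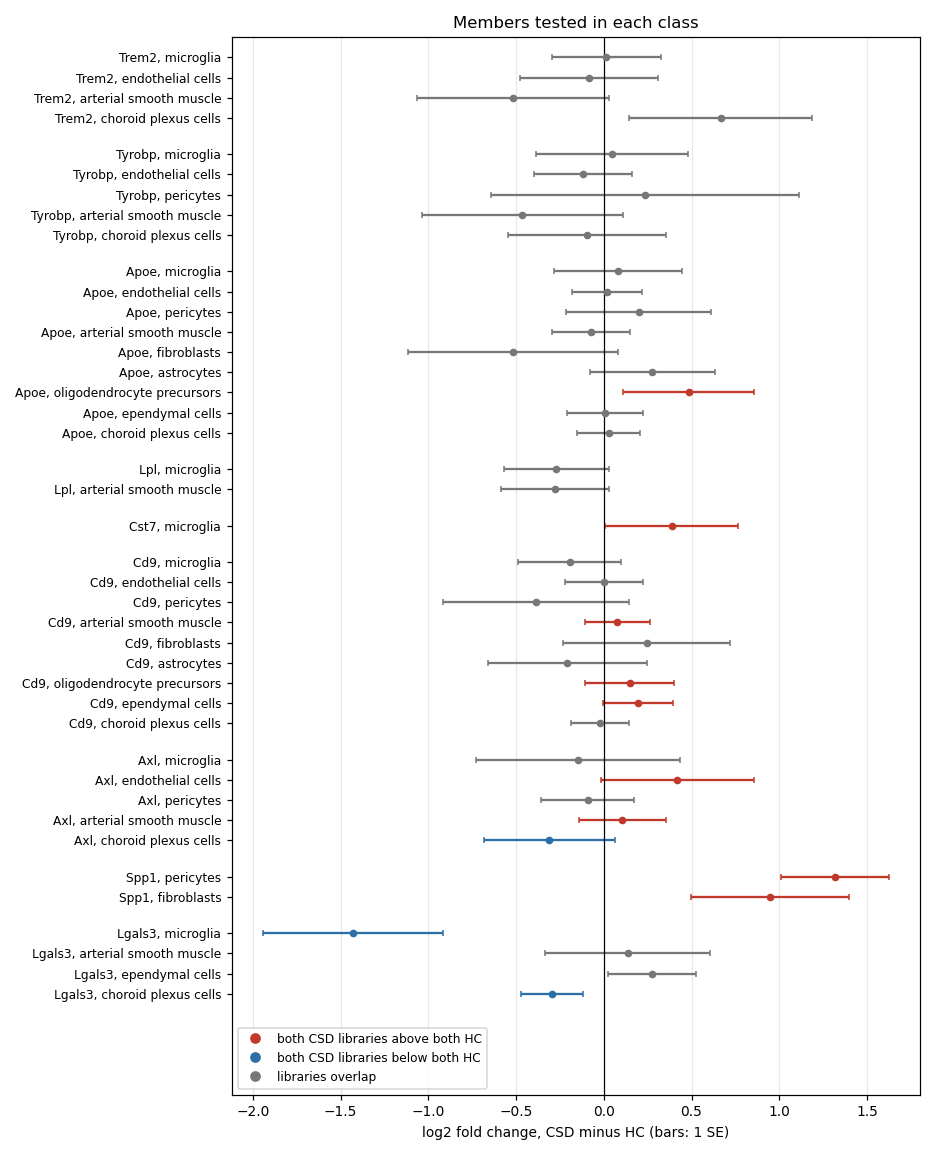
Log2 fold change of each tested member in each class, CSD minus HC, with bars of 1 SE. Colours follow the libraries after scaling: red where both CSD libraries are above both HC libraries, blue where both are below and gray where they overlap. Spp1 in pericytes (1.32) and Lgals3 in microglia (-1.43) lie farthest from 0.

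The wider DAM program was read from further lists in the same microglial fit, and no gene of any list passed (0% called). Of 6 other early DAM genes, 6 were tested and 0 called, with a median log2 difference of 0.08 against 0.0009 over all genes tested. After scaling, both CSD libraries were above both HC libraries for 2 of them, where 12.2% of all genes tested behaved so. These were the protease Ctsd (5737 and 6137 against 5334 and 5524 CPM after scaling) and the ferritin chain Fth1. On the raw scale Fth1 overlapped (5765 and 4970 CPM in CSD, 5239 and 5253 CPM in HC). Of 6 other genes of the Trem2-dependent step, 5 were tested and 0 called, with a median of -0.12. The protease Ctsl (0.17) and Timp2 (0.05), the highest expressed of them, did not pass. Ctsl had both CSD libraries above both HC libraries, and the inhibitory receptor Lilrb4a had both below (3.93 and 2.57 against 8.08 and 4.14 CPM after scaling). Of 10 DAM genes with no step assigned, 7 were tested and 0 called, the highest being Ctsz (0.10) and Cd68 (-0.0037).

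Homeostatic genes, which DAM lower, did not pass either. All 10 were tested and 0 called, with a median of -0.09, and 4 (Cx3cr1, Gpr34, P2ry12 and P2ry13) had both CSD libraries below both HC libraries, where 10.6% of all genes tested behaved so. All 4 are also markers that chose the microglia. P2ry13, a receptor for ADP, was at 210 and 235 against 347 and 297 CPM after scaling, a log2 difference of -0.55 (SE 0.25, unadjusted p = 0.0669, adjusted p = 1 by edgeR). Csf1r (0.03) and Cx3cr1 (-0.29) were the highest expressed.

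Partners of the members were a list of 18 ligands, receptors and signalling proteins, of which 16 were tested and 0 called, with a median of 0.08. Mertk (0.06), a receptor kinase related to Axl, and Inpp5d (0.18), a phosphatase that restrains Trem2 signalling, were the highest expressed. Abca1 (0.23) is a lipid exporter that loads Apoe, and Plcg2 (0.10) a phospholipase in the Trem2 pathway. After scaling, each had both CSD libraries above both HC libraries. On the raw scale Plcg2 overlapped (65.6 and 58.7 CPM in CSD, 58.2 and 61.0 CPM in HC). Lrp1, a receptor for Apoe particles, had both CSD libraries below both HC libraries (176 and 203 against 240 and 212 CPM after scaling). Of all genes tested in microglia, 22.9% had libraries that did not overlap. Of 10 immediate-early and dissociation genes, which tissue digestion can raise, 0 were called, with a median of 0.19. Fos (0.08) and Jun (-0.04) led by level, at 4271 to 5320 and 4065 to 4410 CPM after scaling. The heat shock gene Hspa1b differed by 0.80 (SE 0.22, unadjusted p = 0.00986, adjusted p = 1 by edgeR). Its near-identical copy Hspa1a differed by 0.66 (SE 0.29, unadjusted p = 0.0599 by edgeR), and reads shared by both copies cannot be assigned to 1 of them.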

How the data were processed

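Single cells were captured with the 10x 3' v3.1 chemistry. The deposited matrices hold raw UMI counts of every barcode, before any calling of cells, which the authors made with Cell Ranger (version 4.0 in the submitters' processing notes, 3.1.0 in the matrix headers, and another in the published methods) on GRCm38. Cells with at least 500 UMIs, at least 250 genes and at most 25% mitochondrial UMIs were kept.

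Clustering (scanpy 1.11.5, leidenalg 0.10.2, 3000 variable genes, 40 components, 20 neighbours, resolution 1.6) left out 31 DAM and related genes and gave 31 clusters. Clusters were named from marker lists, and a cell stayed in its class when it held at least 3 UMIs of that class's markers and more than of any other. A class for red blood cells was dropped after the clusters were seen. Scrublet marked 4, 11, 35 and 73 cells of CSD 1, CSD 2, HC 1 and HC 2 (0.0980%, 0.431%, 1.23% and 1.48%), so it did little in the CSD libraries, and marked cells were left out only as an alternative.

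Counts were summed per library and class, and CSD was compared with HC by edgeR 4.0.16 (quasi-likelihood test, TMM scaling, Benjamini-Hochberg adjustment over all genes of the class, R 4.3.3) in the 9 classes with at least 10 cells in every library. DESeq2 1.42.0 was an alternative. The test was checked on simulated data. Levels are CPM of the summed raw counts unless given as after scaling, with exact 95% Poisson intervals that cover counting error only, as do the limits set by a count of 0 (3 counts). Levels and overlaps after scaling used TMM factors taken over all genes. The test took its own TMM factors over the genes it kept, so its log2 differences can depart from these levels. Shares of cells were taken after thinning each cell to 500 UMIs. Free RNA was read from barcodes of at most 100 UMIs. Promoters came from RefSeq (GRCm38.p6), and gene positions from GENCODE M21.

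Each library is a pool of 4 mice, so p-values measure the spread between 2 pools per condition. One gene is not reported here. The members and lists were chosen with earlier results of these data known. All members are named whatever their values. Of each further list, genes that passed the test and the 2 of the highest level were to be named, and other listed genes in the text were chosen after their values were seen. For each member, the 3 genes closest to it across classes are named, and clusters are described by genes among their top 10 by fold.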

Additional observations from a re-analysis of the deposited data

Results flagged for a closer look

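Axl, the Gas6 receptor, had differences of opposite sign in 3 classes, without overlap of the libraries after scaling. Its log2 difference, CSD minus HC, was 0.11 in arterial smooth muscle cells and 0.42 in endothelial cells, where both CSD libraries were above both HC libraries, and -0.31 in choroid plexus cells, where both were below. None of these passed edgeR's test in its class, and the difference between the classes was not tested. Such separation was common: libraries did not overlap for 29.9% of all genes tested in arterial smooth muscle cells, 38.9% in endothelial cells and 29.5% in choroid plexus cells. Levels after scaling were 82.5 and 89.7 against 79.8 and 76.6 CPM in arterial smooth muscle cells, 7.15 and 8.35 against 4.71 and 6.83 CPM in endothelial cells, and 3.34 and 3.06 against 4.27 and 3.85 CPM in choroid plexus cells. On the raw scale the endothelial libraries overlapped (6.90 and 8.22 CPM in CSD, 4.75 and 7.12 CPM in HC). Free RNA would give 64.8 to 82.9% of the endothelial level scaled by microglial markers, and 16.5 to 30.1% scaled by choroid plexus markers.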

How the results depend on the processing

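No DAM member was called in microglia under any alternative run. The number of genes higher in CSD in microglia was 1 with DESeq2, 10 with no filter on low counts and 2 with the replicate block, and 0 to 3 when 1 library was left out (3 without HC replicate 1). The number lower was 7 with no filter and 0 to 2 when 1 library was left out (2 without HC replicate 1). Of the member by class pairs, 0 to 3 were called when 1 library was left out (3 without CSD replicate 1). The log2 difference in microglia ran, over fits leaving out 1 library, from -0.28 to 0.61 for Apoe, -0.17 to 0.20 for Trem2, -0.52 to 0.47 for Tyrobp and -0.69 to 0.72 for Axl, so that these had no stable direction. For Apoe in fibroblasts it ran from -1.805 to 0.091. Apoe in microglia was at -0.12 with the gate without clusters, and Axl at 0.19 without clusters 11 and 16, an alternative added after the data were seen. Lgals3 in microglia kept its sign, from -2.05 to -0.73, and so did Spp1 in pericytes, from 0.93 to 1.65. The difference in the share of microglia with 2 or more Trem2-dependent members was -0.318 percentage points, was 0.0760 with 3 or more members (1 cell) and 0.653 unthinned, was -0.0353 with at least 1000 UMIs per cell, -0.0264 without clusters 11 and 16 and -0.204 with at most 10% mitochondrial UMIs (exact permutation p = 1 in each), and ran from -0.542 to -0.0946 when 1 library was left out. The cause was not tested. Of 630 class levels under other cell filters, 590 moved by less than 1 SD of the libraries.

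The replicate numbers appear in both conditions. Deviations of same-numbered libraries correlated at 0.428 over 10011 genes and at 0.724 over the 2922 genes with a mean above 50 CPM, but the labels do not say that a number marks a batch and there are only 2 pairs. With the replicate block 2 genes were called higher and no member changed its call. Few genes could be tested in fibroblasts (1028), astrocytes (1030) and oligodendrocyte precursor cells (1445).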

Other observations

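The unnamed cluster of 115 cells that carried Lgals3 mixed genes of several myeloid cell types, and its makeup differed between libraries. S100a8, a neutrophil gene, was at 6767, 5963, 0 and 24270 CPM in CSD 1, CSD 2, HC 1 and HC 2, while Cd74, which belongs to antigen presentation, was at 12948, 7661, 16858 and 12456 CPM. Apoe was at 4584, 3006, 18756 and 18113 CPM in this cluster, both HC libraries above both CSD libraries. Trem2 followed at 124, 120, 775 and 470 CPM. The border macrophage genes Mrc1 (144, 89.9, 468 and 423 CPM) and Pf4 (103, 0, 561 and 689 CPM) were also higher in both HC libraries. The other markers of border macrophages are not given for this cluster. The cells numbered 46, 16, 25 and 28, and none of these differences was tested. The share of all genes that separated the conditions was not computed for this cluster. In the tested classes it ran from 21.8% (astrocytes) to 44.2% (oligodendrocyte precursor cells). The part of the cluster's makeup in any member's level was not tested.

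Of all cells with at least 10 UMIs of genes shared by macrophages (C1qa, C1qb, C1qc, Ctss, Csf1r, Aif1 and Fcer1g), 307 lay outside both macrophage classes, 73 of them in this cluster and 127 among cells that failed the marker gate. Summed over the 307 cells, Apoe was at 5935 CPM and Trem2 at 441 CPM. Without thinning and without Cd9, 15 of the 307 held 2 or more Trem2-dependent members, 7 in this cluster and 5 among cells that failed the gate. The like count was 14 of 4550 microglia. The gate for microglia used P2ry12, Tmem119 and Cx3cr1, which DAM lower, so cells with little of these could fall outside it. Depth was not matched, and what these 15 cells are was not tested.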
